A study of Mus musculus with 4 samples.

Results

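Genes of the tight junction were followed through 4 sorted fractions of mouse embryonic fibroblasts (MEFs) undergoing reprogramming toward pluripotency. The 9 genes were the claudins Cldn1, Cldn3, Cldn4, Cldn5, Cldn6 and Cldn7, the occludin gene Ocln, and the scaffold genes Tjp1 and Tjp3. They were chosen by name, not by a threshold on their values, but with earlier results of these data known. Their counts beside the shares of all genes are therefore a description only. They were 9 of 18193 genes with a named probe set on the Affymetrix array. They were read by 16 probe sets, of which 13 reached the floor for a measured level, the median of all values (4.53 on the log2 scale), on at least 1 array. By the probe set with the highest mean, which stands for a gene below, 8 of the 9 reached the floor, and Cldn6 did not.

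The fractions were gated on stains for 3 proteins, the reprogramming factors Oct4 and Klf4 and the epithelial adhesion molecule EpCAM. The first fraction was negative for Oct4 and is called Oct4-negative below. The other three stained for Oct4: one without Klf4 (Klf4-negative), one with Klf4 but not EpCAM (EpCAM-negative), and one with all the stains (EpCAM+). Each was read on 1 array, from RNA of cells that had been fixed and permeabilized. The labels name no mouse strain, genotype, introduced factors, day or culture, give no Klf4 gate for the Oct4-negative cells and no EpCAM gate for the Klf4-negative ones. Differences between fractions therefore have no replicate check and carry no p-value, and whether neighbouring fractions came from the same culture is not stated. The only technical spread at hand is that between probe sets of the same gene: over 5709 genes with several, the median SD of a log2 difference was between 0.12 and 0.18. In RNA of a sorted population, fewer expressing cells and less RNA per cell cannot be told apart.

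Tight junctions seal the space between neighbouring epithelial cells. Claudins and occludin are membrane proteins of the junction strands, and claudins set which ions and solutes pass between cells. Scaffold proteins such as ZO-1 and ZO-3, encoded by Tjp1 and Tjp3, tie the strands to actin from the cell interior. Fibroblasts form no such strands, and in reprogramming they pass through a mesenchymal-to-epithelial transition in which junction genes come on. The fibroblast repressors of the Snail and Zeb families bind E-boxes in promoters of junction genes, and grainyhead-like factors are activators of epithelial genes.

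Of 10 fibroblast markers, 9 reached the floor in the Oct4-negative array and Pdgfra, at 3.15, did not. Their median level was 9.62 in the Oct4-negative array, 9.48 in the Klf4-negative, 6.36 in the EpCAM-negative and 5.31 in the EpCAM+ array. Single markers differed from this: at the Oct4 step 3 were higher (Postn 7.22-fold, Dcn 3.63-fold and Thy1 2.69-fold) and 3 lower, and between the ends 8 were lower while Dcn, with 6.76, 8.62, 10.97 and 10.98, was 18.7-fold higher. Of the sorted proteins' own transcripts, Pou5f1 (Oct4) went from 7.59 to between 11.48 and 11.70 and Epcam had levels of 4.63, 5.20, 6.54 and 9.52. The brighter Klf4 probe set had 7.32, 6.24, 10.20 and 10.60, and the other had 6.95, 5.69, 2.67 and 3.20. From the Klf4-negative to the EpCAM-negative array the other fell where the brighter one rose. At the remaining gates both went the same way. The difference between the 3′ and 5′ control probe sets of Gapdh, a sign of RNA integrity, was 1.30 on the log2 scale in the Klf4-negative array and between 0.97 and 1.04 in the others. For Actb it stayed between -0.065 and -0.051.

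The tight junction genes did not move together but at different gates. Cldn1 was higher from the Oct4 gate on, Cldn3 and Cldn5 from the Klf4 gate on, and Cldn4, Cldn7, Ocln and Tjp3 passed the size rule at the EpCAM gate. The scaffold gene Tjp1 was bright in each fraction. By this size rule, a gene was higher or lower if the difference was 2-fold or more and its brighter level reached the floor. The background ceiling was 2.94, the top value among 27 control probe sets for bacterial sequences. For a dimmer level under that ceiling, the ceiling took its place in the fold, which is then written "at least". A log2 difference or rank that rests on such a level is given as read and has no exact meaning.

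**Figure D1:**
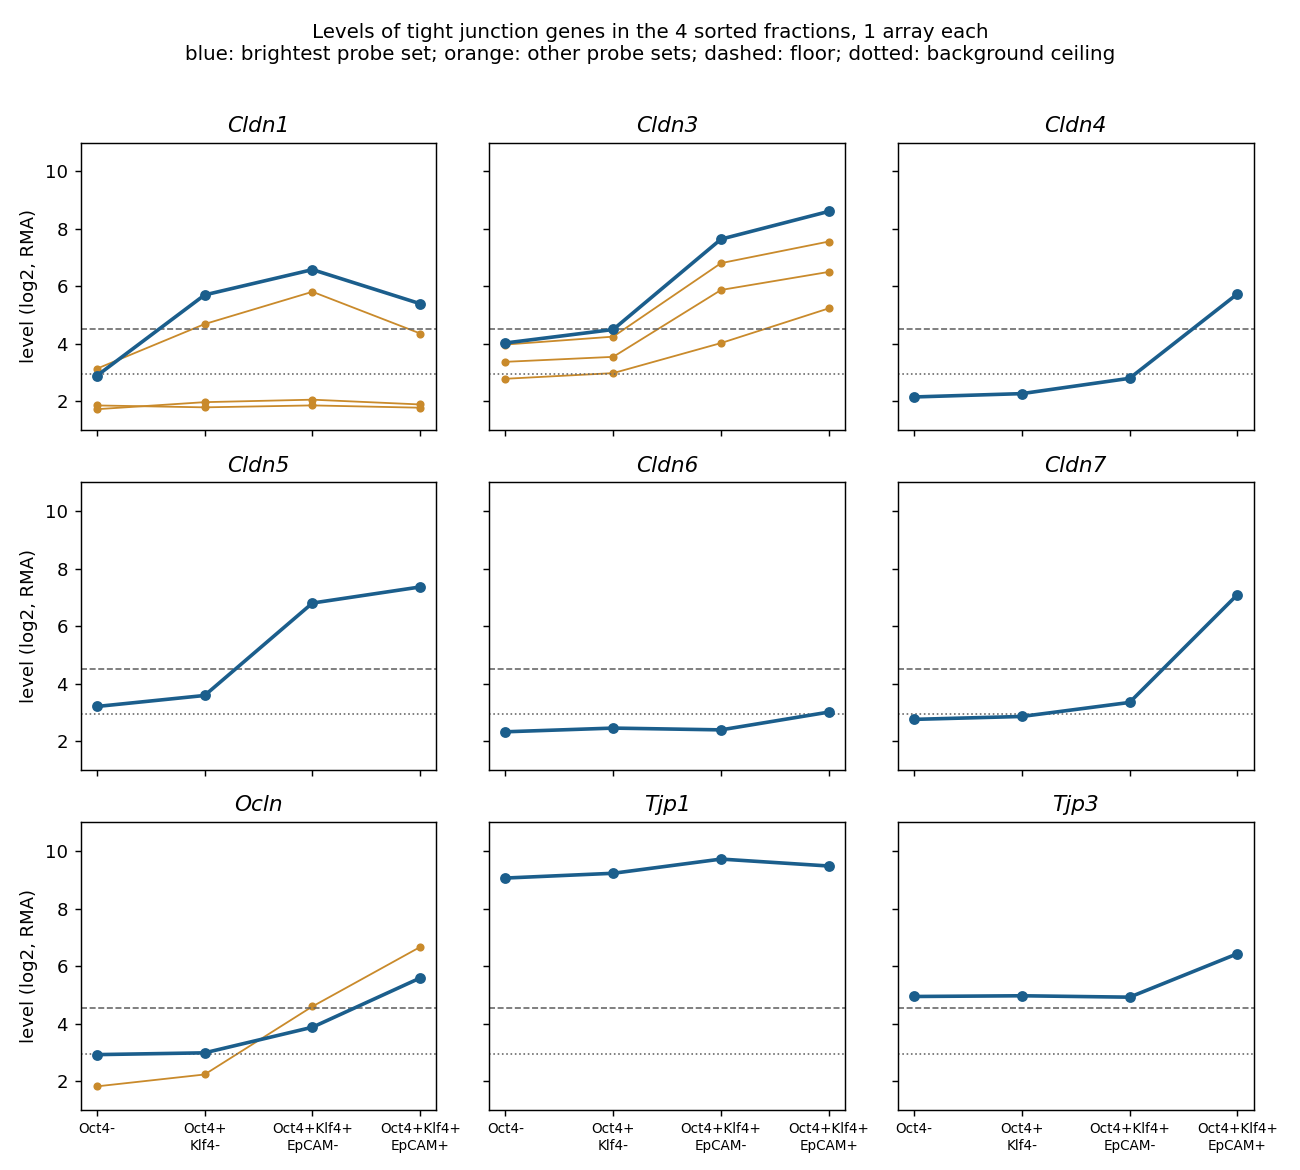
Level of each probe set (log2, robust multi-array average values) of the 9 genes over the 4 fractions in gate order, 1 array a fraction, with the floor (4.53, dashed) and the background ceiling (2.94, dotted). Cldn1 peaks in the EpCAM-negative fraction at 6.58, Cldn3 and Cldn5 step up at the Klf4 gate, Cldn4 and Cldn7 step up at the EpCAM gate, and Tjp1 stays between 9.06 and 9.72.

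At the Oct4 step, from the Oct4-negative to the Klf4-negative fraction, 1 of the 9 genes was higher by the size rule and 0 were lower. Over all 18193 genes, 2.25% were called higher and 3.04% lower at this step. The gene was Cldn1, a claudin of the epidermal barrier, at least 6.79-fold higher. The median log2 difference of the 9 genes was 0.13, beside 0.00 over all genes.

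Cldn1 had levels of 2.89 in the Oct4-negative array, 5.70 in the Klf4-negative, 6.58 in the EpCAM-negative and 5.40 in the EpCAM+ array. It was thus near background only in the Oct4-negative cells, and dimmer in the EpCAM+ than in the EpCAM-negative fraction. A second probe set ran alike, with 3.14, 4.69, 5.81 and 4.36, and was 2.93-fold higher at the Oct4 step. The other 2 of its 4 probe sets lay between 1.73 and 2.06 on each array, below the background ceiling. With all 4 averaged, Cldn1 did not reach the floor and was not called at any gate (log2 difference 1.14 at the Oct4 step).

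No other claudin among the 9 accompanied Cldn1 at the Oct4 step. The levels of Cldn3 were 4.03 and 4.50, those of Cldn5 3.21 and 3.59, and Cldn4, Cldn6 and Cldn7 lay at or below 2.86 in both arrays. Keratinocyte markers were higher in 0 of 15 genes on the array at this step, with a median log2 difference of 0.09. Trp63 had levels of 4.05, 4.26, 3.56 and 3.57 through the gates, below the floor on each array. Krtdap, with 6.22 and 7.15, was 1.91-fold brighter at this step, short of the size rule. The part of epidermal cells in the Cldn1 result was not tested. The array on which Cldn1 first reached the floor was also the one with the larger Gapdh end difference, whose part in the result was not tested.

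**Figure D2:**
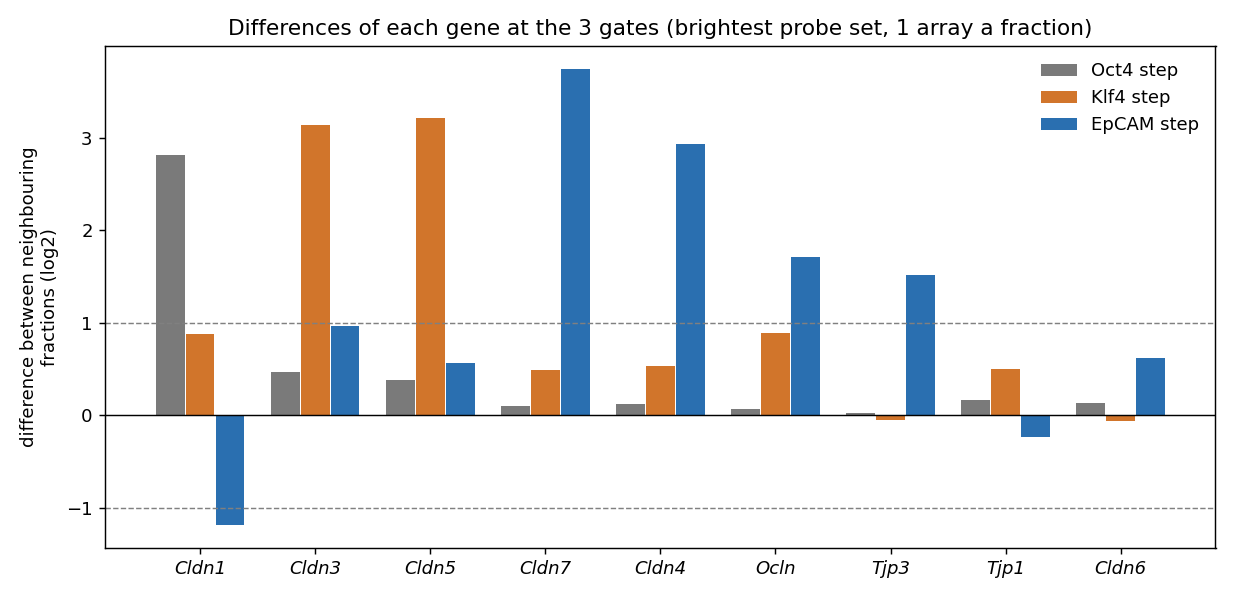
Log2 difference of each gene between neighbouring fractions at the Oct4, Klf4 and EpCAM steps (brightest probe set, 1 array a fraction), with dashed lines at a 2-fold difference. The tallest bar belongs to the Oct4 step for Cldn1 (2.81), to the Klf4 step for Cldn3 (3.14) and Cldn5 (3.21), and to the EpCAM step for Cldn7 (3.75), Cldn4 (2.94), Ocln (1.71) and Tjp3 (1.51).

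At the Klf4 step, from the Klf4-negative to the EpCAM-negative fraction, 2 of the 9 genes were higher and 0 were lower. The shares over all genes were 5.3% higher and 4.32% lower. Cldn3, a sealing claudin of many simple epithelia, was 8.83-fold higher and Cldn5, best known from the endothelium of brain vessels, 9.28-fold. The median log2 difference of the 9 genes was 0.53, beside 0.01 over all genes.

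Cldn3 had levels of 4.03, 4.50, 7.64 and 8.61 in gate order. Each of its 4 probe sets was brighter at each successive gate, and their log2 differences at the Klf4 step ran from 1.05 to 3.14. The probe set with the smallest difference was at 2.98 and 4.03 there, below the floor on both sides. By their suffixes all 4 can read several transcripts, and the second brightest gave a log2 difference of 2.56.

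Cldn5 had levels of 3.21, 3.59, 6.81 and 7.37, read by 1 probe set. Its profile ran close to that of Cldn3: after each gene's mean was removed, the root mean square difference between both over the 4 arrays was 0.17 on the log2 scale, smaller than for any other pair of the 9 genes. Of 16 endothelial markers, 3 were higher at the Klf4 step (Tek, Flt1 and Ramp2) and 1 was lower (Egfl7). The log2 of their summed level was 9.02, 9.11, 10.02 and 9.92 in gate order. The endothelial genes Kdr, Emcn, Vwf and Sox17 lay at or below the background ceiling in each fraction, Cdh5 lay between 2.51 and 2.97, and Pecam1 between 2.68 and 3.38. The 5 markers that reached the floor were Tek, Flt1, Ramp2, Egfl7 and Eng. Tek, a receptor of endothelial and some blood cells, had 3.33, 7.49, 9.22 and 8.74, already above the floor a gate before Cldn5. The part of these genes in the Cldn5 result was not tested.

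Of the other members at the Klf4 step, Ocln and Cldn1 depended on the probe set. For Ocln the probe set with the higher mean had 2.98 and 3.87, a log2 difference of 0.89 below the floor. Its other probe set had 2.23 and 4.59 and passed the size rule, at least 3.15-fold higher. Cldn1 had a log2 difference of 0.88 by its brightest probe set, short of the size rule. Its second probe set gave 1.12 and passed the rule, 2.18-fold higher. The remaining log2 differences were 0.53 for Cldn4, 0.49 for Tjp1, 0.49 for Cldn7, -0.05 for Tjp3 and -0.06 for Cldn6.

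At the EpCAM step, within cells that stained for Oct4 and Klf4, 4 of the 9 genes were higher and 1 was lower, against 1.95% higher and 1.12% lower over all genes. Cldn7, a claudin that binds EpCAM, was 13.4-fold higher, Cldn4 at least 6.96-fold, Ocln 3.28-fold and Tjp3 2.85-fold, while Cldn1 was 2.28-fold lower. The median log2 difference was 0.97, beside 0.00 over all genes. Among the 11429 genes reaching the floor on any array, the difference of Cldn7 ranked 2 from the highest. Cldn4 is given no rank, since its dimmer level lay under the background ceiling.

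Cldn7 had levels of 2.76, 2.86, 3.35 and 7.10 in gate order, read by 1 probe set. It lay far below the floor in the first 3 fractions and above it only in the EpCAM+ one. Cldn4, another sealing claudin of simple epithelia, had levels of 2.16, 2.27, 2.80 and 5.74, also from 1 probe set. Both therefore stood near background in each EpCAM-negative or EpCAM-ungated fraction. Cldn3 and Cldn5, already bright in the EpCAM-negative fraction, were higher again by 0.97 and 0.56 on the log2 scale, short of the size rule. The dimmest Cldn3 probe set differed. It had 4.03 and 5.24 at this step, was 2.31-fold higher and passed the rule, and this was its largest step.

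Ocln, which encodes the strand protein occludin, had levels of 2.92, 2.98, 3.87 and 5.59 by its first probe set. By the second it had 1.81, 2.23, 4.59 and 6.66, and the log2 difference at the EpCAM step was 1.71 and 2.07. Both probe sets were thus brightest in the EpCAM+ fraction and called there. For the second, the log2 difference as read was larger at the Klf4 gate, 2.37 against 2.07. With the background ceiling its Klf4 step was at least 3.15-fold and its EpCAM step 4.20-fold, so which was larger is not settled.

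The scaffold genes split. Tjp3 had levels of 4.94, 4.96, 4.92 and 6.43, at the same level in the first 3 fractions to within 0.05 and 2.85-fold higher in the last. Tjp1 had levels of 9.06, 9.23, 9.72 and 9.48, and none of its steps reached 2-fold, the widest being 0.49 at the Klf4 gate. Cldn6, a claudin of embryonic epithelia and pluripotent stem cells, had 2.33, 2.46, 2.40 and 3.01, below the floor on each array.

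Between the ends of the series, 7 of the 9 genes were higher and 0 were lower, beside 7.46% and 6.77% of all genes. Cldn3 was 23.9-fold higher, Cldn5 17.8-fold, Cldn7 at least 17.8-fold, Cldn4 at least 6.96-fold, Ocln at least 6.25-fold, Cldn1 at least 5.49-fold and Tjp3 2.80-fold. Other probe sets gave other sizes: log2 differences of 3.58 and 3.13 and at least 4.91-fold for Cldn3, beside 4.58 by the brightest, and at least 13.2-fold for Ocln. The second Cldn1 probe set gave 2.34-fold with its brighter level below the floor and was not called. This comparison joins the 3 steps and shares its arrays with 2 of them, so it adds no independent measurement. Markers of simple epithelium had a median level of 5.06, 4.92, 6.25 and 9.24 in gate order, with 8 of 12 higher at the Klf4 step and 10 of 12 at the EpCAM step. At the Oct4 step 0 were higher, while the keratin genes Krt18 (3.72-fold) and Krt19 (4.90-fold) were lower. Between the ends Krt18 and Krt7 differed by 0.11 and -0.09 on the log2 scale. Markers of keratinocytes had medians of 4.32, 4.43, 5.90 and 7.29, with 7 and 5 of 15 higher at the same steps. The log2 of the summed level went from 10.1 to 13.3 for the simple epithelium list, after 9.09 at the Klf4-negative fraction, and from 10.6 to 13.0 for the keratinocyte list. No gene of either list stayed at or below the background ceiling on all arrays. The simple epithelium list shares Epcam, Esrp1, Grhl2 and St14 with lists described below. Trophoblast markers were higher in 4 and 3 of 10 at the same steps, with Cdx2 and Tpbpa under the ceiling throughout, and primitive endoderm markers in 0 of 10 at each gate. Of 9 blood and macrophage markers, 2 were lower at the Oct4 step, 2 were higher at the Klf4 step, where Cldn3 and Cldn5 were, and 1 was lower at the EpCAM step. Those higher were Laptm5 (28.0-fold) and Cd14 (3.13-fold), and the log2 of the list's summed level was 8.20, 7.07, 9.77 and 8.95. Adgre1, Itgam and Tyrobp lay under the ceiling on each array. The part of such cells in the results was not tested.

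**Figure D3:**
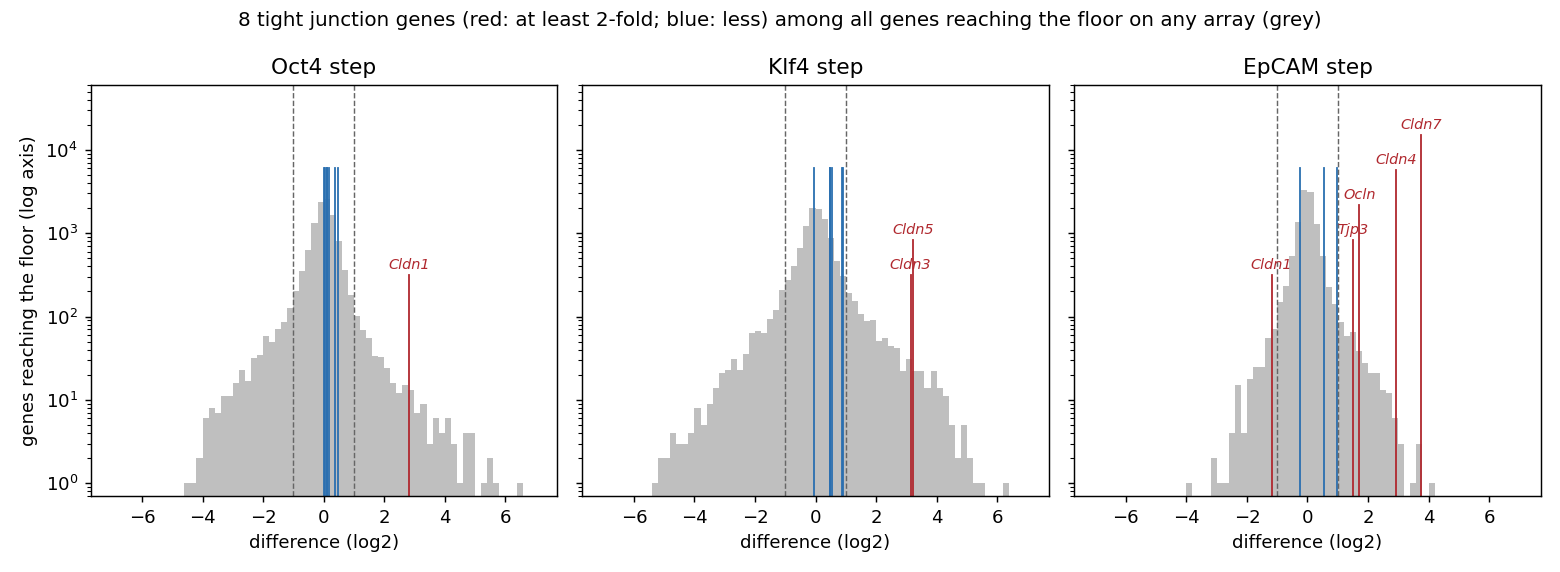
Histograms of the log2 difference at each step for the 11429 genes reaching the floor on any array (grey, log axis), with the 8 tight junction genes that reached it as vertical lines; line height carries no value. At the EpCAM step Cldn7 (3.75) and Cldn4 (2.94) lie in the far upper tail, and Cldn1 (-1.19) lies on the lower side.

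Cldn3 and Cldn4 are adjacent genes on chromosome 5 of the mouse assembly GRCm38.p6, in opposite orientation, and stepped at different gates. The 250 bases before their annotated starts are shown because the pair differed in gate, together with Cldn5, which shared the gate of Cldn3. They lie at chr5:134985964-134986213 on the + strand, chr5:134946935-134947184 on the - strand and chr16:18776597-18776846 on the + strand, from RefSeq on GRCm38.p6. Capitals mark matches on either strand to the E-box CAGGTG (reverse complement CACCTG) or to the Klf-type CACCC box GGGTG (reverse complement CACCC), with adjoining matches joined.
Cldn3: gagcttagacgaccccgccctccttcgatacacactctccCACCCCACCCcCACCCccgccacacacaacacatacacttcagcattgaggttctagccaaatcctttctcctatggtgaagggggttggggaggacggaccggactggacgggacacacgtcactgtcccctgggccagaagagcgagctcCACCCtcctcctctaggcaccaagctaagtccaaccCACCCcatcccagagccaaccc
Cldn4: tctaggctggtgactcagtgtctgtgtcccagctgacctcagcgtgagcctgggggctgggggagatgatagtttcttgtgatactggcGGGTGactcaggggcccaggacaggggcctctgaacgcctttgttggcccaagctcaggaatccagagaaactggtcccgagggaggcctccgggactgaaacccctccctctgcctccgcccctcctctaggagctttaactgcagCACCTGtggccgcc
Cldn5: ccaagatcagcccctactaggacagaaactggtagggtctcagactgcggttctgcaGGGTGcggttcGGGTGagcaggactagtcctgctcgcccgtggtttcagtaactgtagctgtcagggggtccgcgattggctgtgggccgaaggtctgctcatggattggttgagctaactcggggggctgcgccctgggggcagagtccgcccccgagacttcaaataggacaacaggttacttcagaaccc
The stretch before Cldn3 held 5 CACCC box matches and no E-box, that of Cldn4 held 1 of each, and that of Cldn5 held 2 CACCC box matches and no E-box. The window searched ran on to 50 bases after the start, where Cldn3 and Cldn4 each held an E-box more, at positions 31 and 11.

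Across the 12 promoter windows of the 9 genes (300 bases each, up to 2 annotated starts a gene), the E-box CAGGTG occurred in 8 windows and in 6 genes, Cldn3, Cldn4, Cldn6, Cldn7, Ocln and Tjp3. It occurred in 20.2% of 32851 windows and 22.6% of 27025 genes in all. The CACCC box GGGTG occurred in 7 of the 9 genes and in 59.8% of all genes, and the grainyhead-like core ACCGGT in 0 of the 9 and in 2.68%. The GC content of the windows, whose part in these counts was not tested, was between 45.3% and 68.0% in these windows, with a median of 52.7% over all. The 12 E-box matches made 11 distinct sites, since the windows of Ocln overlap. All 4 genes called higher at the EpCAM step held at least 1, as did Cldn3 and the unmeasured Cldn6, while Cldn1, Cldn5 and Tjp1 held none. Whether the matches relate to the gates was not tested. The 8 sites of those 4 genes are shown on the strand that reads CAGGTG, in capitals, with 12 bases on either side and the position from the annotated start in the name.
Cldn4, -14: aaagggcggccaCAGGTGctgcagttaaag
Cldn4, 11: cctttcttgttgCAGGTGcaggcaggaaag
Cldn7, second start, -97: cccctcctcgtcCAGGTGaagaggaagaaa
Cldn7, second start, -57: agacttccggttCAGGTGagtgtcccttca
Ocln, first start, 7: ccatcggagtttCAGGTGaatgggtcaccg
Ocln, second start, -68: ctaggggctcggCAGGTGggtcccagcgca
Tjp3, first start, -108: gtcacaaggggtCAGGTGtacagacaggga
Tjp3, second start, -17: gaggccggcctgCAGGTGggagggtttgtg
They lie, in this order, at chr5:134946931-134946960, chr5:134946906-134946935, chr11:69965312-69965341, chr11:69965352-69965381, chr13:100552694-100552723, chr13:100552549-100552578, chr10:81291672-81291701 and chr10:81291267-81291296. A match is a description of the letters, not a bound site.

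The genes that lie beside the 9 in the genome were listed after the values were seen. Of 43 protein-coding genes within 3 places of a member and on the array, 0 were called at the EpCAM step, 1 was higher and 1 lower at the Klf4 step, and 2 were lower at the Oct4 step. Between the ends 2 were higher and 2 lower. These counts are too few to set against the shares of 1.12% to 7.46% of all genes called in a direction, and nothing is read from them. Mettl27 and Abhd11, on either side of the Cldn4 and Cldn3 pair, had log2 differences of -0.24 and 0.58 between the ends. Marveld2, beside Ocln, encodes the related tricellulin of junctions between 3 cells and had levels of 2.73, 2.47, 2.53 and 3.98, below the floor throughout and at least 2.06-fold brighter past the EpCAM gate. Cldn9, beside Cldn6, had 2.60, 2.37, 2.30 and 3.44, also below the floor.

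Of 17 further claudins or relatives on the array, 3 reached the floor and 1 was called. This was Cldn11, a claudin of myelin and Sertoli cells, with 2.68, 3.25, 6.71 and 6.79, 10.9-fold higher at the Klf4 step and thus at the same gate as Cldn3 and Cldn5. Cldn12 was bright throughout, between 9.86 and 10.49. The list's median log2 differences were 0.06, -0.07 and 0.09 at the 3 steps, and 14 of the 17 stayed below the floor.

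Of 11 other strand and adhesion proteins, 5 reached the floor. At the Klf4 step 3 were higher and 1 lower, at the EpCAM step 2 and 1. Marveld3, a relative of occludin, had levels of 2.61, 2.61, 5.09 and 7.44, at least 4.43-fold higher at the Klf4 gate and 5.09-fold at the EpCAM gate. Lsr, a protein of tricellular contacts, had 5.45, 5.02, 6.36 and 8.13 and was 2.53-fold and 3.41-fold higher at those gates. F11r, the junctional adhesion molecule JAM-A, was 3.63-fold higher at the Klf4 gate, while its relative Jam3 was 2.75-fold and 2.07-fold lower at the Klf4 and EpCAM gates. The other Jam3 probe set gave a smaller log2 difference at the EpCAM gate, -0.07 against -1.05. Cxadr, an adhesion molecule and virus receptor, was the 1 gene of the list higher at the Oct4 step, by 2.63-fold.

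Junction scaffolds on the array numbered 24, all of which reached the floor. At the Oct4 step 1 was higher and 1 lower, at the Klf4 step 3 and 6, and at the EpCAM step 4 and 1. Over all 18193 genes, of which 11429 reached the floor, 2.25% were higher and 3.04% lower at the Oct4 step. The shares were 5.3% and 4.32% at the Klf4 step and 1.95% and 1.12% at the EpCAM step. The same shares stand beside the counts of the other gene lists. The scaffold genes called at the Oct4 step were Magi1 (2.04-fold higher) and Micall2 (5.61-fold lower), a partner of Rab13. Higher at the Klf4 step were the polarity genes Crb3 (8.31-fold), Patj (2.30-fold) and Pard6b (2.17-fold), and these 3 were higher again at the EpCAM step, by 4.00-fold, 2.04-fold and 2.60-fold. The other scaffold genes called at the EpCAM step were Micall2 (2.69-fold higher) and Mpdz (2.31-fold lower). The probe sets of Crb3 ranged from 0.41 to 3.06 in log2 difference at the Klf4 step. At the EpCAM step the weakest probe sets gave 0.79 for Crb3 and 0.35 for Patj, short of the size rule, and 1.38 for Pard6b. Lower at the Klf4 step were Amotl2 (4.76-fold), Amot (4.55-fold) and Amotl1 (2.33-fold) of the angiomotin family, the scaffold genes Magi3 (4.27-fold) and Mpdz (3.30-fold), and Rab13 (2.53-fold), a GTPase of junction traffic. The weakest probe sets gave log2 differences of -0.82 for Amot and -0.59 for Amotl1. Cgn, which encodes cingulin, reached the floor only in the EpCAM+ fraction, with 3.72, 3.75, 3.75 and 4.59 by its brightest probe set. Its log2 difference at the EpCAM step was 0.84 by that probe set, short of the size rule, and 2.53 by the other. The list's median log2 differences were 0.04, -0.16 and 0.01.

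**Figure D4:**
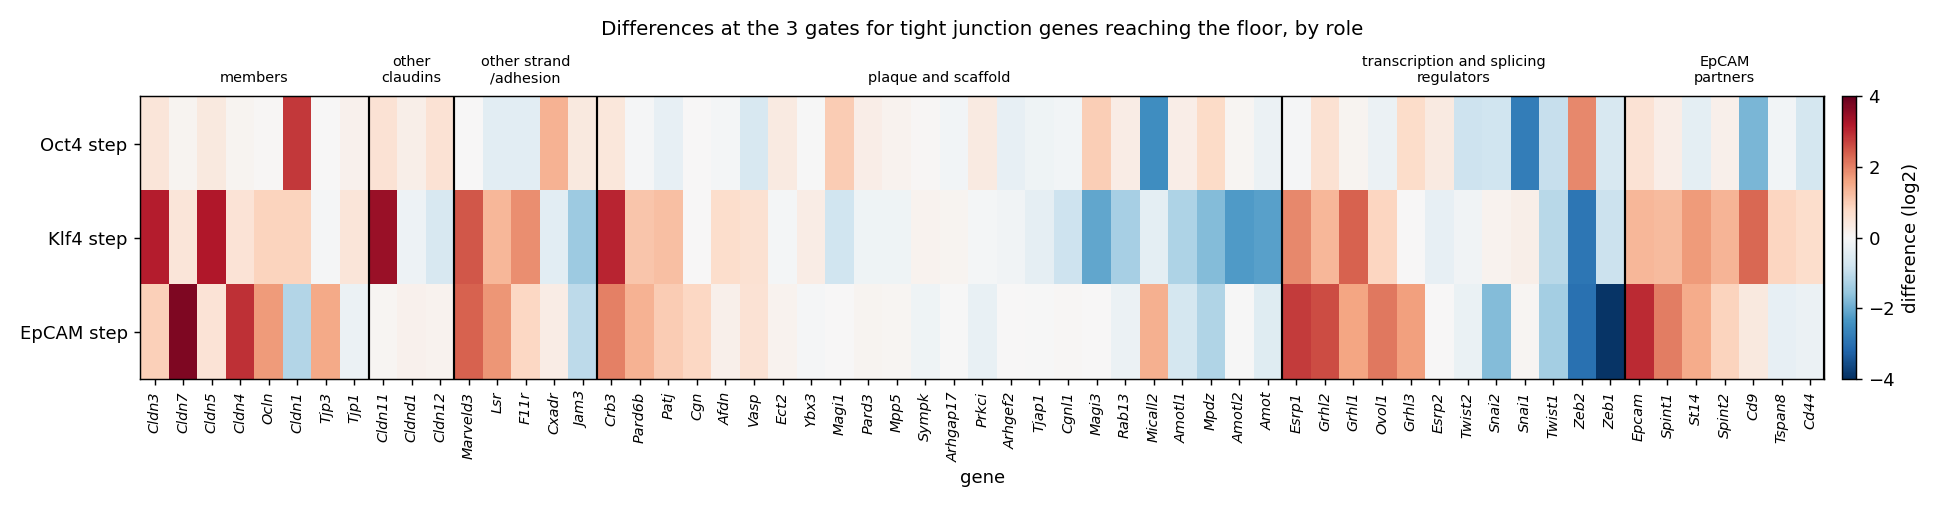
Log2 differences at the 3 steps (rows) for the listed genes that reached the floor on any array (columns, by role), red for higher and blue for lower in the later fraction, with the colour scale ending at 4 either way. Cldn3, Cldn4, Cldn5, Cldn7, Cldn11, Marveld3, Lsr and Crb3 are red at the Klf4 or EpCAM step, and Cldn1 is blue at the EpCAM step. The angiomotin genes are blue at the Klf4 step, and Zeb1 and Zeb2 are dark blue at the EpCAM step.

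Of the transcription and splicing regulators of junction genes, 5 of 13 were higher and 4 lower at the EpCAM step, and those called split by role. Not called were Snai1, Twist2, Esrp2 and Ovol2, with log2 differences of 0.09, -0.26, 0.02 and 0.35. Ovol2 lay below the floor on each array, and the other Esrp2 probe set gave 1.39. Higher were the splicing factor gene Esrp1 (6.90-fold), the grainyhead-like genes Grhl2 (6.17-fold), Grhl3 (3.14-fold) and Grhl1 (2.97-fold), and Ovol1 (4.27-fold). Lower were the repressor genes Zeb1 (15.2-fold), Zeb2 (at least 4.93-fold), Snai2 (3.32-fold) and Twist1 (2.57-fold). The probe sets of Zeb1 ran from -3.92 to -1.97 in log2 difference, and the weakest Zeb2 probe set gave -1.16, while those of Grhl2 ran from 1.39 to 2.81. Zeb1 had levels of 8.63, 7.99, 7.12 and 3.20 in gate order, below the floor only in the EpCAM+ fraction. At the Oct4 step 1 of the 13 was lower, Snai1 (6.83-fold), and 1 was higher, the repressor gene Zeb2 (3.78-fold). At the Klf4 step Grhl1 (5.10-fold), Esrp1 (3.75-fold) and Grhl2 (2.52-fold) were higher and Zeb2 (7.39-fold) and Twist1 (2.14-fold) lower. The weakest Grhl2 probe set gave a log2 difference of 0.19 there. Whether the levels of these regulators relate to those of the tight junction genes was not tested.

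Partners of the EpCAM protein included the proteases and inhibitors that control its cleavage. Of 7 on the array, Epcam itself included, 5 were higher at the Klf4 step and 3 at the EpCAM step. Spint1, a protease inhibitor, was 2.38-fold and 4.10-fold higher at those gates and St14, the protease matriptase, 3.24-fold and 2.79-fold. Spint2, a related inhibitor, was 2.57-fold higher at the Klf4 step. Cd9, a tetraspanin, was 3.57-fold lower at the Oct4 step and 4.87-fold higher at the Klf4 step. The EpCAM+ fraction was sorted on EpCAM, so the Epcam transcript there is a check of the sort and no result.

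The genes most like each called member were found by the root mean square difference of mean-centred log2 levels over the 4 arrays, among 10977 other named genes reaching the floor. Mal2, a protein of apical transport, lay nearest to Cldn7, at 0.03, with levels of 2.21, 2.26, 2.79 and 6.47. Before the EpCAM gate, Cldn7, Cldn4 and most of the genes nearest to them lay at or near the background ceiling. Their likeness there is that of background levels. Lrrc8e was brighter, with 3.82 in the EpCAM-negative array, but below the floor. Mpzl2, an epithelial adhesion protein, lay nearest to Cldn4, at 0.05, followed by Lrrc8e, a subunit of a volume-regulated anion channel, and Ano9. Ano9 and Mpzl2 followed Mal2 in likeness to Cldn7 (0.24 and 0.28). Nearest to Cldn3 were the tubulin gene Tubb4a (0.04), the phosphodiesterase gene Pde9a (0.11) and Gkn1 (0.15), and nearest to Cldn5 the ubiquitin ligase gene Rnf125 (0.08), the splicing factor gene Nova2 (0.08) and Ndrg1 (0.09).

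Ocln lay nearest to Lypd5 (0.05), Cysrt1 (0.07) and the Wnt inhibitor gene Wif1 (0.07), and Tjp3 to Padi2 (0.04), Phyhip (0.05) and the phosphatase gene Ssh3 (0.08). Cldn1 had no close match: its nearest genes were Prrg3 (0.31), Mndal (0.32) and Mpped2 (0.35). With 4 points, such a distance describes the shape of a profile on these arrays only.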

How the data were processed

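The authors deposited 1 log2 level for each probe set and array. The submitters' processing notes name robust multi-array average (RMA) and state no version. RMA normalizes the arrays to each other and shrinks differences of dim probe sets. Per the labels' protocols, RNA was recovered from fixed cells with RecoverAll and amplified with the Ovation Pico WTA kit, which act before the array.

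Of 45101 probe sets, 64 were controls. Of the others, 34945 had 1 gene symbol in the platform annotation, 932 had several and 9160 were not listed there. Each of 18193 genes was represented by the probe set with the highest mean. Older names of listed genes were matched through RefSeq (GRCm38.p6), which named Cldnd1, Tmem114 and Mpp5. The size rule was 2-fold with the brighter level at the floor. This rule and the search for like profiles were tested on simulated data. Differences were compared in 4 comparisons without a test, since each group had 1 array, whose number limits the precision. The genes named were each member, up to 4 genes past the size rule for each pathway list and comparison or any other of a list with its value, the 3 genes nearest in profile to each called member, and the transcripts of the sorted proteins. The members and lists were chosen with earlier results of these data known. Alternatives were another summary of probe sets, other floors and sizes, and 2 rescalings. Promoter windows came from RefSeq on GRCm38.p6, and in 1892 of 1892 overlapping windows on opposite strands the sequences were reverse complements. Python 3.11.15, numpy 2.4.6, pandas 2.3.3 and matplotlib 3.10.9 were used.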

Additional observations from a re-analysis of the deposited data

How the results depend on the processing

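The numbers of members called were 1, 2 and 5 at the Oct4, Klf4 and EpCAM steps and 7 between the ends. With a floor of 6.87, the 75th percentile, they were 0, 1, 1 and 3, since most members lay below it. With all probe sets of a gene averaged, the Oct4 step had 0, because Cldn1 fell below the floor. Called at 3-fold, the EpCAM step had 3, without Tjp3 and Cldn1. Under the other alternatives (1.5-fold, no floor, probe sets without the suffixes of shared transcripts, centring, a second quantile normalization) each count stayed within 1.5 times its main value. Ocln by its other probe set, an alternative chosen after seeing the data, gave 3 at the Klf4 step. Of 135 values of the 15 called differences under the alternatives, 111 moved by less than the spread between probe sets and kept their call, 24 moved by more or lost it and 0 reversed. The alternative floors and fold sizes leave each difference as it is, and the Ocln alternative changes Ocln alone, so most of these could not reverse. Centring shifted the EpCAM+ array by 0.11 relative to the Oct4-negative one. No paired analysis was possible because each group has 1 array. The low levels of Cldn4, Cldn6 and Cldn7 near background limit what their dim fractions can show.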
